A study of Canis lupus familiaris and Eptesicus fuscus and Equus caballus with 6 samples.

Results

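The abundant piRNA-sized sequences of the testis were defined by length and read count alone. In the small RNA library of dog, of the big brown bat (Eptesicus fuscus) and of horse, identical sequences were summed, and those of 26 to 32 nt with at least 100 reads per 1000000 reads listed for that library (rpm) were taken. The rule gave 956 sequences of 2696564 distinct sequences of these lengths in dog, 944 of 565367 in bat and 777 of 3560892 in horse, 2677 in all. They were 0.0355%, 0.167% and 0.0218% of the distinct sequences and held 41.1% of all dog reads (16986718), 41.3% of all bat reads (2409990) and 25.8% of all horse reads (9248800). Read counts and lengths chose these sequences, so their number, length and read shares are a description.

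The study compared taxa with different transposable element activity and asked how piRNAs target elements. The groups used here were 3, untreated as far as the labels say: adult testes of dog, of bat and of horse, snap frozen and extracted with TRIzol, from which a small RNA fraction was sequenced in single-end reads of 50 nt. Each species had 1 small RNA library, so no difference between species has a replicate check, and no test was made. The sources used here do not give the numbers of animals, the breeds or the season.

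piRNAs are small RNAs of the germ line that guide PIWI proteins, which silence transposable elements and, in the mammalian testis, also bind many piRNAs from long precursor transcripts that are not elements. Their 5-prime end is usually a U, set when the precursor is cut, and their 3-prime end is trimmed to the length that the PIWI protein covers, so that 1 start often carries several ends. When a PIWI protein cuts a target RNA, the cut lies opposite the tenth base of its guide, so a guide and a piRNA made from its target overlap by 10 nt at their 5-prime ends and the second often has A at position 10, a pattern called ping-pong.

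The most read sequences show what the rule took. Names give the species and the rank by reads. Bases are written as in the files, with T for U. A sequence may be listed on either strand, so each is printed in RNA direction where its own 3-prime variants gave one and as listed otherwise, as explained after the values. The capital marks the first base.
dog-1: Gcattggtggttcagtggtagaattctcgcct
dog-2: Ttaatgaccttcatggacgcctctgaccc
dog-3: Ttggagacagaacaggatctaacttgggcc
dog-4: Ggtgcccgtcatggcctaacataacctgaa
dog-5: Ttgtaagctcttgagcaccggaacagcct
bat-1: Ttgcgttttctggacctagaactgtcaga
bat-2: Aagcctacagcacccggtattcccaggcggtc
bat-3: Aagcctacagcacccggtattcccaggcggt
bat-4: Tgtctgctggaccaagttctcttgttcagg
bat-5: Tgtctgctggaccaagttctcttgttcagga
horse-1: Taagaccagacttcaaacccactcaagagt
horse-2: Tgagaagttcgttaggatgtcgcactcct
horse-3: Tgagaagttcgttaggatgtcgcactcctg
horse-4: Gctctcaggtctcaggttcacatttagca
horse-5: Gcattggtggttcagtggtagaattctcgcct

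The most read dog sequence, dog-1, had 1317469 reads, or 31878 rpm, 3.19% of the library. Its letters are those of the 5-prime end of a mammalian tRNA-Gly (GCC). horse-5, listed as the reverse complement, has the same 32 letters in RNA direction, with 156384 reads (4365 rpm). The RNA names given here come from general knowledge of mammalian RNAs and were not looked up in a reference. The next dog sequences had 421092 (dog-2), 383916 (dog-3), 294260 (dog-4) and 271435 reads (dog-5). Of these, dog-2, dog-3 and dog-5 begin with T, and dog-4 with G, with dog-3 printed as listed.

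In bat, 1 sequence stood above all others. bat-1 had 253037 reads, 43411 rpm or 4.34% of the library, against 69190 for bat-2 and 62291 for bat-3. The letters of bat-2 and bat-3 are the reverse complement of the 3-prime end of 5S rRNA. bat-4 and bat-5 differ by a final A and had nearly the same counts, 45523 and 45500 reads. In horse, horse-1 led with 310724 reads (8672 rpm, 0.867% of the library), followed by horse-2 with 198768, horse-3 with 177129 and horse-4 with 172044 reads. horse-2 and horse-3 differ by a final G.

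Most of the abundant sequences lay close to the threshold. The median dog sequence had 188 rpm, the median bat sequence 179 and the median horse sequence 176. Under 200 rpm lay 501 dog sequences (52.4%), 526 bat sequences (55.7%) and 444 horse sequences (57.1%), and 1000 rpm or more was reached by 65, 67 and 37. The 10 most read held 21.6% (dog), 26.3% (bat) and 17.2% (horse) of the abundant reads. The lowest counts just inside the threshold were 4133 dog, 583 bat and 3585 horse reads, and the highest just outside were 4119, 582 and 3572. The libraries differed in depth, with 41328689 dog, 5828928 bat and 35830283 horse reads, all of 24 to 32 nt, so the same threshold stood for fewer reads in bat.

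Abundant sequences were concentrated at 29 and 30 nt. In dog, 343 of 956 were 30 nt long (35.9%, exact 95% interval 32.8 to 39.0%) and 334 were 29 nt (34.9%). Of the other dog sequences of 26 to 32 nt, 21.0% were 30 nt long and 22.6% were 29 nt. In bat, 325 of 944 were 30 nt (34.4%) and 288 were 29 nt (30.5%). Horse sequences were longer: 295 of 777 were 30 nt (38.0%), 186 were 29 nt (23.9%) and 171 were 31 nt (22.0%), against 13.3% at 31 nt in dog and 15.8% in bat. The shortest lengths were rare. Sequences of 26 nt were 1.05% (dog), 1.91% (bat) and 1.93% (horse) of the abundant ones, but 11.0%, 9.30% and 12.7% of the other sequences. Intervals here and below are exact (Clopper-Pearson) binomial intervals and cover counting error only. Sequences that share an end are not independent, and reads are PCR copies without molecular identifiers.

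Read as listed, the sequences carried 2 terminal bases far above the others. T began 54.7% of dog sequences (51.5 to 57.9%), 47.5% of bat sequences and 51.5% of horse sequences. A was the last base of 49.4%, 50.1% and 50.6%. One or the other, a first T or a last A, was present in 857 dog sequences (89.6%), 791 bat sequences (83.8%) and 680 horse sequences (87.5%). The same shares were 87.4%, 85.7% and 90.0% in sequences of 10 to 100 rpm, so they were no higher among the abundant bat and horse sequences, and 74.4%, 70.2% and 75.6% in those under 1 rpm. A last A is what a first U looks like when the other strand is written.

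To read each sequence in RNA direction without using its bases, the variability of its ends was used. All other listed sequences with the same first or the same last 24 nt as a given sequence were collected, where they had 10 reads or more together. If 80% or more of those reads had the start in common, the listed strand was kept, and if 80% or more had the end in common, the other strand was taken. The rule gave a direction to 660 dog sequences (69.0%), 686 bat sequences (72.7%) and 513 horse sequences (66.0%). Of these, 48.3%, 51.0% and 47.8% were reversed, so nearly equal numbers were listed on each strand. Identical sequences shared by a pair of species showed whether the rule gave the same call in both libraries. They cannot show that the call was right. Of the sequences with a direction in both species, 7 of 7 between dog and bat, 14 of 14 between dog and horse and 7 of 7 between bat and horse received the same RNA direction, although most horse copies were listed on the opposite strand. The most read sequences of the cross-species clusters described at the end gave a mixed result. Of 31 pairs with a direction, 26 had the same one and 5 the opposite one. Some of these pairs share only a stretch, but others are identical sequences already counted above. Agreement was not counted for pairs that share only a stretch.

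In RNA direction, U led the first base in each species. It began 455 of 660 dog sequences (68.9%, 65.3 to 72.5%), 510 of 686 bat sequences (74.3%, 70.9 to 77.6%) and 396 of 513 horse sequences (77.2%, 73.3 to 80.8%). The share was about the same in sequences of 10 to 100 rpm, 69.2%, 76.9% and 78.4% in the same order, and was lower in those under 1 rpm, at 55.2%, 55.9% and 59.3%. After U, G came next in dog (14.2%), then A (11.4%) and C (5.45%). In bat G had 10.3%, A 9.04% and C 6.27%, and in horse G had 10.3%, A 7.41% and C 5.07%.

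The share of first U varied with length. At 32 nt, the length of dog-1, bat-2 and horse-5, U began 33.3% of 21 dog sequences, 48.1% of 27 bat sequences and 51.6% of 31 horse sequences, all with wide intervals (14.6 to 57.0% in dog). The lowest bat shares were at 26 nt (42.9% of 14) and 27 nt (45.8% of 24). At 29 nt U began 69.2% of dog, 80.3% of bat and 81.6% of horse sequences.

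The last base differed more among the species than the first. In horse, C ended 39.8% of the sequences with a direction, against 28.3% in dog and 27.0% in bat. In less read horse sequences C ended 32.3% at 10 to 100 rpm, 29.6% at 1 to 10 rpm and 23.5% below 1 rpm. In dog, A was the commonest last base (33.6%), and G was at 13.8%, against 15.6% in dog sequences of 10 to 100 rpm, 19.4% at 1 to 10 rpm and 25.1% below 1 rpm. In bat the 4 bases were nearly even, from 21.6% for G to 27.3% for T. Each share comes from 1 library and was not tested.

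A at position 10 was at or a little above the level of its neighbours. It stood there in 35.5% of dog, 28.0% of bat and 31.8% of horse sequences with a direction. The neighbouring positions had A in 25.2% (position 9) and 30.9% (position 11) in dog, 21.3% and 27.4% in bat, and 29.2% and 25.3% in horse. Position 10 was not the position richest in A, since position 5 had A in 36.8%, 36.3% and 46.2%. Among dog sequences that did not begin with U, 82 of 205 had A at position 10 (95% interval 33.2 to 47.1%), against 152 of 455 that did (33.4%, 29.1 to 37.9%). In bat the order was the other way, 38 of 176 (21.6%) against 154 of 510 (30.2%), and in horse the shares were 40 of 117 (34.2%) and 123 of 396 (31.1%). At 10 to 100 rpm, A stood at position 10 in 35.1% of dog, 26.9% of bat and 31.3% of horse sequences that began with U. Each of these shares lay inside the 95% interval of the abundant sequences. Among the others of 10 to 100 rpm the shares were 33.2%, 29.4% and 33.0%, so the dog and bat orders were reversed there.

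Many abundant sequences were variants of each other. Joining sequences that share their first or their last 24 nt gave 704 dog groups, 644 bat groups and 567 horse groups. Of the groups, 543 (77.1%), 467 (72.5%) and 441 (77.8%) had 1 member. The other members, 413 in dog (43.2%), 477 in bat (50.5%) and 336 in horse (43.2%), stood in groups of up to 11, 22 and 16. In groups of more than 1 member, the most read sequence held a median of 62.2% (dog), 60.9% (bat) and 62.0% (horse) of the group's reads. The 10 groups with most reads held 28.3%, 37.8% and 27.3% of the abundant reads.

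The dog-2, bat-1 and horse-2 groups, among those with most reads in their species, show how members of 1 group differ. All are printed in the direction of their most read sequence, with the bases after the first 24 in capitals.
dog-2: ttaatgaccttcatggacgcctctGACCC
dog-11: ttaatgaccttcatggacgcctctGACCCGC
dog-45: ttaatgaccttcatggacgcctctGACCCG
dog-58: ttaatgaccttcatggacgcctctGACC
dog-119: taatgaccttcatggacgcctctgACCCGC
dog-423: taatgaccttcatggacgcctctgACCC
dog-439: tgttaatgaccttcatggacgcctCTGACC
bat-1: ttgcgttttctggacctagaactgTCAGA
bat-15: ttgcgttttctggacctagaactgTCAG
bat-64: ttgcgttttctggacctagaactgTC
bat-313: ttgcgttttctggacctagaactgTCA
bat-406: aagcttgcgttttctggacctagaACTGTC
bat-526: aagcttgcgttttctggacctagaACTGT
horse-2: tgagaagttcgttaggatgtcgcaCTCCT
horse-3: tgagaagttcgttaggatgtcgcaCTCCTG
horse-19: tgagaagttcgttaggatgtcgcaCTCC
horse-726: tgagaagttcgttaggatgtcgcaCT

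In the dog-2 group (722603 reads), 4 sequences shared 1 start and ended at 28, 29, 30 and 31 nt, with 46596, 421092, 55132 and 156107 reads. The 31 nt form was thus the second most read, above the 30 nt form. The other 3 sequences of the group began 1 base later or 2 bases earlier and had 8466 to 26386 reads, and the direction rule, applied to each sequence by itself, read them in reverse. In the horse-2 group (436034 reads), the 29 nt form had 198768 reads, the 30 nt form 177129, the 28 nt form 56332 and the 26 nt form 3805. The bat-1 group (279926 reads) was nearly 1 sequence, with 90.4% of its reads at 29 nt, 17377 reads at 28 nt, 1409 at 27 nt and 5954 at 26 nt. Its remaining members, bat-406 and bat-526, began 4 bases earlier and had 1191 and 958 reads.

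The groups with most members were larger. The dog-5 group, with 11 members the largest in dog (623278 reads), held 3 starts in the direction of dog-5, as many as the dog-2 group, and lengths of 27 to 32 nt, and dog-5 itself had 43.5% of its reads. In horse, the horse-21 group had 16 members and 256580 reads, with 19.9% in its most read sequence, and the horse-4 group had 8 members and 398310 reads. The bat-2 group was the largest of all, with 22 members and 281353 reads (4.83% of the library). Of its 15 members with a direction, 0 began with U. Its letters are 5S rRNA, and the rule read the most read members as listed, which is opposite to the RNA by general knowledge. Without this group, U began 76.0% of the bat sequences with a direction. Both directions were called within 1 group in 22 of 159 dog groups, 15 of 170 bat groups and 11 of 121 horse groups of more than 1 member.

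All 24 to 32 nt sequences with the same start were then collected for each abundant sequence with a direction, at any read count. Dog had 510 such 3-prime families, bat 473 and horse 393. A sequence can stand in a family of each direction, and its reads then count in both. The letters of dog-2 led a family of 679447 reads and, as the reverse complement, another of 430059. Where 1 RNA was read in both ways, some of its families are of its 5-prime end. Such families were not removed from the values here and below. The median dog family had 8 distinct sequences, the median bat and horse families 9. The most read sequence of a family held 74.1% of its reads at the median for dog families (33.0 to 99.5%), 65.7% for bat families (23.9 to 97.7%) and 68.9% for horse families (22.9 to 98.2%). Lengths that each held over 1% of a family's reads numbered 3 (dog), 5 (bat) and 4 (horse) at the median. The form 1 nt shorter than the commonest length had a median of 5.15% of the family's reads against 2.71% for the form 1 nt longer in dog, 6.64% against 4.33% in bat, and 7.31% against 4.75% in horse. It was the larger of these neighbours in 58.8% of dog, 58.4% of bat and 55.2% of horse families. The files stop at 32 nt, so the 14 dog, 18 bat and 20 horse families with a commonest length of 32 nt could show no longer form. The commonest length was 29 nt in 184 dog families and 30 nt in 180, while in horse it was 30 nt in 163 and 29 or 31 nt in 90 each. A fixed end is what gave a direction, so the variable 3-prime end itself is no finding.

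As listed in the files, variants were almost all simple truncations or extensions of 1 sequence. Families were collected by an identical start, so only the bases after it could differ. The dog-2 family of 679447 reads held only 9 listed sequences, with 100% of its reads nested. Whether the files had been filtered in a way that removed other variants is not stated and was not tested. At least 99% of the reads nested in each other, letter for letter, in 500 dog families (98.0%), 463 bat families (97.9%) and 385 horse families (98.0%). Single bases at the 3-prime end that differed from the longer forms were rarely listed, making up 0.0499% of dog, 0.174% of bat and 0.0125% of horse family reads. The family richest in them held 52.1% (dog), 32.3% (bat) and 50.7% (horse) of such reads, so which base led rested on it. In dog A made up 62.8% and T 34.5% with that family, and 27.9% and 66.6% without it. In bat T made up 33.0% with it and 2.13% without it, where A had 78.6%, and in horse C made up 48.1% and 7.18%. Variants from related genomic copies were not separated.

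The extremes of 3-prime raggedness show how the families vary, with the bases after the first 24 in capitals. They are examples picked with their values known.
dog, highest share in 1 form: gcccaaactatagttggaaagccaTTCTTA
dog, most variants: ttcaccatgaccaagtaggatttaTCCCTG
bat, lowest share in 1 form: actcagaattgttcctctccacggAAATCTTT
horse, lowest share in 1 form: ttacagagaactcctttgctggcaCCACAT
horse, most variants: ttctagttgtggcatgtgggacgcCGCCT

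The first of these dog families had 96507 reads, of which 99.5% were the 30 nt form. The second had 98 variants in 57486 reads, with 38.7% in its leading form and 89.9% nested. Its letters resemble LINE-1 ORF2 by general knowledge. The bat family had 5199 reads in 9 forms over 9 lengths, with 23.9% in its leading form. The horse family with the lowest share had 80082 reads, of which its leading form held 22.9%, and all of its reads were nested. The horse family with most variants had 89 of them in 11113 reads, and only 46.6% nested, the lowest share among horse families, so that many of its variants differ in letters within the bases after the start.

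Complementary partners were sought among the abundant sequences. A partner was another abundant sequence of the same species holding the reverse complement of at least 16 nt. Sequences were compared as listed, not in RNA direction. A pair can thus be 1 RNA strand listed in both ways, and antisense RNAs listed on the same strand were missed. Such a partner was found for 28 dog sequences (2.93%, 1.95 to 4.21%), 19 bat sequences (2.01%, 1.22 to 3.13%) and 24 horse sequences (3.09%, 1.99 to 4.56%). With 12 nt the counts were 74, 56 and 63, and with partners sought among all sequences of at least 10 reads 88, 107 and 121. At 16 nt they formed 22 dog pairs (between 9 pairs of groups), 27 bat pairs (between 4) and 28 horse pairs (between 6). No abundant sequence was listed together with its full reverse complement, with 0 in each species. The dog and horse pairs with the largest product of reads are printed as listed, with the complementary run in capitals.
dog-1: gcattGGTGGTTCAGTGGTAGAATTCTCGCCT
dog-66: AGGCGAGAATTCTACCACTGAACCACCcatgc
horse-48: TAGCACAGGTGGTAGAACTAGAATTGGAGt
horse-53: gCTCCAATTCTAGTTCTACCACCTGTGCTA

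The paired sequences overlapped over most of their length. Dog pairs overlapped by 25 to 32 nt, bat pairs by 23 to 31 nt and horse pairs by 19 to 31 nt. The search asked for 16 nt, so it could not find a pair with a 10 nt overlap. Among the pairs, 11 dog, 14 bat and 6 horse pairs had no mismatch. dog-66, reversed, differed from dog-1 by T5G, counting from 1 at the start of the first sequence, and had 40984 reads against 1317469. horse-53, reversed, differed from horse-48 by T30C, with 29196 reads against 30788. Where both sequences had a direction, they were listed on opposite strands of what then read as the same RNA strand in 13 of 13 pairs in dog, 21 of 24 in bat and 19 of 19 in horse. In RNA direction these pairs differed by at most 1 base in dog and 3 in horse. In bat 15 of the 21 differed by 3 bases or fewer and 6 by 6 to 10 bases. The 3 other bat pairs, bat-213, bat-242 and bat-363 with bat-731, were complementary over 25 nt without a mismatch and read as antisense. This rests on the direction rule. A dog sequence, dog-274, shares 21 nt with bat-213 and received the opposite RNA direction. Whether these bat pairs are antisense RNAs or 1 RNA strand with a wrong call was not tested.

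After orientation, a few pairs overlapped by exactly 10 nt at their 5-prime ends. Dog had 4 such pairs, bat 7 and horse 2. In bat, bat-113 and bat-677 belong to 1 group and share a start that is its own reverse complement, which leaves 6 bat pairs. All other group pairs are printed by their most read sequences, in RNA direction, with the complementary 10 bases in capitals.
dog-59: TCACAGTCTAattgtgaagatgcaggagc
dog-105: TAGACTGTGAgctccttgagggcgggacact
dog-347: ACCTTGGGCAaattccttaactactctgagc
dog-421: TGCCCAAGGTcacatagctagttagcagca
dog-595: TCAAATGTCAcctcctctgtagaaccttcc
dog-658: TGACATTTGAactgggtgtgggtgtctgg
bat-24: TTCTCAGTCTggagaccctgttagactag
bat-116: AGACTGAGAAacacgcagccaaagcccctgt
bat-91: TGACTGCGGAaacgagtggggtccccgc
bat-823: TCCGCAGTCAtgctgagtgttgcaaaggt
horse-366: TTGATGGTAAttggaagagctcttggggt
horse-697: TTACCATCAAcatggaaacttggctct
horse-464: CCCATGTGCAtgtgagctcacctgcct
horse-620: TGCACATGGGgaccgaggattgttgaacc

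All 12 of these pairs (4 dog, 6 bat and 2 horse) held A at position 10 in at least 1 partner. By construction a partner that begins with U puts an A at position 10 of the other. U began 7 of 8 dog starts, 8 of 12 bat starts and 3 of 4 horse starts in these pairs. dog-59 had 45602 reads and its partner dog-105 29886, and dog-105 has a shorter form, dog-585, with 6478 reads. bat-24 had 12749 reads against 3431 for bat-116, and its 3-prime variants bat-124, bat-480 and bat-827 had 3219, 1032 and 658. horse-366 had 6646 reads and horse-697 3965. The dog-347 and dog-421 pair, with 10333 and 8896 reads, has letters that resemble the MIR element by general knowledge.

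These numbers can be read against other overlap lengths. At 9 nt there were 2 dog pairs, 0 bat pairs and 0 horse pairs. At 11 to 17 nt there were 0 pairs in dog and horse and 6 in bat, with at most 2 at any 1 length in bat. At 8 nt there were 7 dog pairs, 2 bat pairs and 5 horse pairs. At 18 to 24 nt there were 15 dog pairs, 7 of them at 19 nt, 2 bat pairs and 3 horse pairs. The reverse arrangement, an overlap of 10 nt at the 3-prime ends, was found for 0 dog, 0 bat and 2 horse pairs.

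Some of these sequences recurred in another species. Identical sequences, on either strand, were abundant in both dog and bat for 7 sequences, in dog and horse for 18 and in bat and horse for 8. Of these, 6 were abundant in all 3 species, among them dog-1, dog-14 and dog-54 with the letters of tRNA-Gly. Joining sequences that share 16 nt on either strand gave 37 clusters that span species, with 66 dog sequences (6.90%), 47 bat sequences (4.98%) and 65 horse sequences (8.37%), and 6 of the clusters held all 3 species. Printed next are 3 of these 6 clusters and 2 others that hold sequences met above or like them. The most read sequence of each species is given on 1 strand, with 1 stretch they share in capitals. Other shared letters are left in lower case. In the dog-42 cluster the marked stretch is 11 nt, under the 16 nt used for joining.
dog-1: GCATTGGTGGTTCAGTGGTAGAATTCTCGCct
bat-79: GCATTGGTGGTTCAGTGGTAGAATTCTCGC
horse-5: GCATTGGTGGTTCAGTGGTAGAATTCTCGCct
dog-42: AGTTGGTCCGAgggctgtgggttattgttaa
bat-80: AGTTGGTCCGAcggttgtgggttatt
horse-440: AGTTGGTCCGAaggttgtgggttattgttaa
dog-97: ACTTGCTGTTGAGACTCGGAAttctgact
bat-613: ACTTGCTGTTGAGACTCGGAAatctgatt
horse-751: ACTTGCTGTTGAGACTCGGAAatctgatt
bat-8: TTGATGGTAATTGGAAGAacttttggagtg
horse-366: TTGATGGTAATTGGAAGAgctcttggggt
bat-49: TGACATTTGAACTGGGTGTGtgtgctgc
dog-658: TGACATTTGAACTGGGTGTGggtgtctgg

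In these libraries the tRNA-Gly letters were most frequent in dog, with dog-1 at 31878 rpm, bat-79 at 844 and horse-5 at 4365. The favoured form differed too. Dog had 1317469 reads at 32 nt, 139693 at 31 nt and 48118 at 30 nt, bat had 1558, 3916 and 4918, and horse had 156384, 52785 and 122226. The dog-42, bat-80 and horse-440 letters resemble a Y RNA, a small RNA of the Ro particle, and were at 1365, 840 and 159 rpm. dog-97, bat-613 and horse-751 shared 21 nt, had 750, 143 and 103 rpm, and were given no name.

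Among sequences given no name, some pairs shared a start and differed at some of the later bases. bat-8 and horse-366 had the same first 18 letters, with 5508 rpm in bat and 185 in horse, and horse-366 is also in a 10 nt pair. bat-49 and dog-658 had the same first 20 letters, with 1251 and 140 rpm, and dog-658 is in a 10 nt pair as well. Both pairs were picked with their values known. The next shares are over all 37 clusters, those given a name included. The tRNA-Gly letters printed above begin with G, and those that resemble a Y RNA with A. In the clusters, U began 47.3% of the 55 dog sequences with a direction (33.7 to 61.2%), against 70.9% of the 605 outside them (67.1 to 74.5%). In bat these shares were 53.7% of 41 and 75.7% of 645, and in horse 55.8% of 52 and 79.6% of 461. These differences were not tested.

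Most abundant sequences were not listed at all in the other species. At any read count and on either strand, 24 dog sequences (2.51%) were found in bat and 36 (3.77%) in horse, 51 bat sequences (5.40%) in dog and 66 (6.99%) in horse, and 34 horse sequences (4.38%) in dog and 21 (2.70%) in bat. A count of 0 allows a share of up to 3 reads, or 7.26e-06% of the dog library, 5.15e-05% of that of bat and 8.37e-06% of that of horse. Orthologous piRNAs with a changed base were not counted in these numbers. The same shares over all listed sequences are not given here, so whether abundant sequences differ from others in this was not tested.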

How the data were processed

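Per the labels' protocols, frozen testes were extracted with TRIzol and the small RNA fraction was sequenced in single-end reads of 50 nt. The small RNA files deposited by the authors hold distinct sequences with a raw read count, and some sequences stand on more than 1 row. The sources used here do not say how reads were trimmed, mapped or selected by length. The submitters' processing notes name Bowtie, RSEM and CanFam3.1 for all samples, without versions or roles. Every listed sequence was 24 to 32 nt long, so file totals are not full library depths. The mRNA files were not used here.

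Counts were summed per sequence and divided by the file total. Direction, shared-end groups, 3-prime families and partners were computed in Python 3.11.15, and exact binomial 95% intervals with SciPy 1.17.1. The rules were checked on simulated sequences. Each simulated family had a fixed 5-prime end, as the direction rule assumes. The check therefore cannot show that the directions called in the libraries are right. No genome or annotation was matched to the sequences. The sequences, lists and rules were chosen with earlier results of these data known. Named were the 5 most read sequences, the 3 groups with most reads and the group with most members, the leading complementary pair and the shared sequences. Some sequences that this rule names are not reported here. Alternatives changed the threshold, the weighting, the direction rule and the matching lengths.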

Additional observations from a re-analysis of the deposited data

How the results depend on the processing

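The number of abundant sequences follows the threshold: at 50 reads per 1000000 (rpm) there were 1937 dog, 2084 bat and 1833 horse sequences, and at 200 rpm 455, 418 and 333. The shared-end groups went with it, to 1364, 1313 and 1246 at 50 rpm and 359, 297 and 262 at 200. Complementary partners depended on the search. With 12 nt, 74 dog, 56 bat and 63 horse sequences had one, and with partners sought among all sequences of at least 10 reads, 88, 107 and 121. The first-U share of sequences with a direction ranged over 9 alternatives from 61.8 to 75.0% (dog), 69.6 to 80.9% (bat) and 76.2 to 81.6% (horse). It was 75.0% in dog and 81.6% in horse when 95% of variant reads had to share an end, 61.8% in dog and 69.6% in bat when weighted by reads, 70.0% in bat at 200 rpm and 80.9% in bat with 1 sequence per group. The causes of these moves were not tested, beyond what each setting changes by construction. The other 42 alternative values moved by less than the counting interval or, for counts, less than 1.5 times. Among these, the alternatives chosen after seeing the data were leaving out sequences that share 16 nt with another species, leaving 24 and 25 nt variants out of the direction rule, reading each group in the direction of its most read sequence, and leaving out the largest group. No paired analysis was possible because each species had 1 small RNA library.

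With 1 library per species, values describe these libraries. Intervals cover counting error only. From 258 to 296 sequences per species had no direction. In bat, the most read 5S rRNA sequences of the bat-2 group were read in the wrong one, by general knowledge. The bat library was shallower, so its rare partners and variants are less fully listed.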
